A study of Mus musculus with 119 samples.

Results

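The 7 transcripts described here encode the TPL-2 kinase, a protein that binds it, and the MEK, ERK and RSK kinases that act downstream of it. They are Map3k8, Tnip2, Map2k1, Map2k2, Mapk3, Rps6ka1 and Rps6ka3, taken by gene symbol from the 18098 genes of the deposited table, and all 7 passed the filter on low values. The cells were bone marrow-derived macrophages (BMDMs) of strain C57BL/6(NIMR), grown for 7 days in L-cell conditioned medium and left unstimulated or given LPS at 100 ng/ml. WT BMDMs were sampled without LPS and after 0.5 and 1 h (n = 6 each) and 2 h (n = 4). Map3k8[D270A] BMDMs, which make a kinase-inactive TPL-2, were sampled at the same 4 times (n = 6 each), and so were Elk1-/-Elk4-/- double knockout BMDMs, called dKO (n = 4 each). Nfkb1[SS/AA] BMDMs, called SSAA, carry a mutation of p105, the protein encoded by Nfkb1 that holds TPL-2 in unstimulated cells, and were sampled at 0, 0.5 and 1 h (n = 6 each). In WT cells MEK was blocked with 0.1 µM PD0325901 (PD) from 10 min before LPS (n = 6 each at 0.5 and 1 h), with PD alone for 10, 40 or 70 min and DMSO for 10 min without LPS (n = 3 each). RSK was blocked in WT cells with 2 µM RSKi47 (RSKi) from 10 min before LPS (n = 4 at 0, 1 and 2 h, n = 3 at 0.5 h). Neither inhibitor had a solvent control given LPS, and the labels do not say which libraries came from the same animal.

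LPS binds TLR4 and activates the IKK complex, which frees TPL-2 from p105 and A20-binding inhibitor 2 (ABIN-2, encoded by Tnip2). TPL-2, encoded by Map3k8, then phosphorylates MEK1 and MEK2, which phosphorylate ERK1 and ERK2, and the ERKs in turn phosphorylate the p90 ribosomal S6 kinases and the ternary complex factors ELK1 and ELK4. The question for these transcripts was whether blocking one step of this cascade went with a change in the mRNAs of its own components, at rest and after LPS.

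The labels place the WT and Map3k8[D270A] libraries in 1 experiment and the dKO, SSAA, PD and RSKi libraries in 4 others, each of which was compared with the same WT libraries. The difference between experiments and the effect of a genotype or an inhibitor therefore cannot be told apart in those 4 arms, and the comparisons with WT share their controls. Elk1 was at 6.31 ± 0.10 (SD, n = 16) in dKO libraries and 9.22 ± 0.14 (SD, n = 22) in WT on the deposited log2 scale, and Elk4 at 5.69 ± 0.14 and 7.90 ± 0.23. The D270A and SSAA mutations change codons, so the level of Map3k8 or Nfkb1 mRNA does not check those labels. The 8 macrophage markers were high in all libraries, the lowest being Mertk with its median at the 84.6th percentile of all genes, whereas T cell, B cell and dendritic cell markers were near the floor. The summed level of 7 neutrophil markers was 9.76 to 10.8 in dKO libraries against 6.03 to 7.54 in WT, with S100a8, S100a9 and Ngp at the highest levels. At low levels, Ly6g (-0.13 to 0.60 against -0.24 to -0.16), Mpo (1.30 to 2.23 against 0.70 to 0.80) and Elane (0.07 to 0.95 against -0.15 to -0.05) also lay wholly above WT in dKO libraries. The same sum was 7.10 to 8.58 with PD, 7.25 to 7.98 with DMSO, 6.87 to 8.34 with RSKi and 6.53 to 8.12 in SSAA, each overlapping WT. The S100a9 medians of these groups were 6.97, 6.61, 6.01 and 5.89, against 4.80 in WT. Of 3 fibroblast markers, Col1a1 and Col1a2 stood higher in RSKi libraries (their summed level with Dcn 4.91 to 9.41, against 3.62 to 4.74 in WT), most of all in RSKi replicate 4, while Dcn stayed at the floor. None of these shifts in markers was tested for its part in the results below.

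Promoter sequences in RefSeq (build GRCm38.p6) were at hand for 4 of the 7 genes, Tnip2, Map2k1, Map2k2 and Rps6ka1. Those of Tnip2, Map2k1 and Map2k2 are shown because these transcripts were called lower most often, in 9, 9 and 8 of the 18 comparisons of a genotype or inhibitor with WT or DMSO. Each window runs 5′ to 3′ on the gene's own strand, from 250 bases before the annotated start to 50 bases after it, and capitals mark CCGGAA, the core of the sites bound by ETS family factors such as ELK1 and ELK4, on either strand. The Tnip2 window lies on the minus strand at chr5:34513930-34514229, that of Map2k1 on the minus strand at chr9:64253556-64253855, and that of Map2k2 on the plus strand at chr10:81105665-81105964.
Tnip2: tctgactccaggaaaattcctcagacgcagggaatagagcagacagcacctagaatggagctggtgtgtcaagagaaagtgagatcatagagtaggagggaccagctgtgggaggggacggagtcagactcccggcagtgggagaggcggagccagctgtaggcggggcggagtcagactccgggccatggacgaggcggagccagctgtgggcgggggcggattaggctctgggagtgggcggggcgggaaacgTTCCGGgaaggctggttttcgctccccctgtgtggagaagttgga
Map2k1: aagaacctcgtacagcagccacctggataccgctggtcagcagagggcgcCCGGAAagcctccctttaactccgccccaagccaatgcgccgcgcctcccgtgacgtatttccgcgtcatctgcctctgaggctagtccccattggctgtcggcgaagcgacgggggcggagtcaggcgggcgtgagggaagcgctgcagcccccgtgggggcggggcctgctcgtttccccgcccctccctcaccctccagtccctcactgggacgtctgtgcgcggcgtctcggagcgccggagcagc
Map2k2: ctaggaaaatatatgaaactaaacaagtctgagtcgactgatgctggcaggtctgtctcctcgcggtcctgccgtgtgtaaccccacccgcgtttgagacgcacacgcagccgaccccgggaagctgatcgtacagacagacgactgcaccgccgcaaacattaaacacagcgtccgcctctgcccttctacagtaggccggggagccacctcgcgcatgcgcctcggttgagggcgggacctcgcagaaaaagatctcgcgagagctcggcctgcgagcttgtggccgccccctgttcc
The core was found once in the Tnip2 window, at bases 256 to 261 on the opposite strand, which is just inside the first exon, and once in the Map2k1 window, at bases 51 to 56. It was not found in the Map2k2 window or in any of the 3 Rps6ka1 windows, and 14.9% of all 32851 promoter windows held it. The kappaB consensus (4.51% of windows) and the serum response element (1.63%) were searched on both strands and were not found in the windows of these 4 genes. A match is a description of these letters only.

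LPS alone moved these transcripts unequally. After 0.5 h only Map3k8 of the 7 passed the test (adjusted p below 0.05 by limma with Benjamini-Hochberg adjustment), when 11.6% of the 11884 genes tested did. After 1 h 3 of 7 passed (46.8% of all genes), and after 2 h 5 of 7 did (71.5%), so at 2 h the members' share was that of the genome. What set Map3k8 apart was its size: at 0.5 h only 0.589% of tested genes changed by as much, and at 2 h 2.1%.

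Map3k8, the MAP3K at the head of the cascade, rose, dipped and rose again. In WT cells without LPS it ran from 8.83 through a median of 8.95 to 9.02, at 0.5 h from 9.84 through 9.99 to 10.10, and at 1 h from 9.47 through 9.57 to 9.63. At 2 h the 4 WT libraries read 11.37, 11.30, 11.58 and 11.14. No group overlapped the unstimulated one, and the 1 h values all lay below the 0.5 h values. The difference from unstimulated cells was 1.03 ± 0.054 (SE; adjusted p = 7.33e-23) after 0.5 h. It was 0.62 ± 0.054 (6.4e-15) after 1 h and 2.41 ± 0.060 (1.89e-38) after 2 h. In these bulk samples a change in the share of cells that express a gene and a change in its RNA per cell cannot be told apart.

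Tnip2, which encodes the ABIN-2 partner that stabilises TPL-2 protein, rose later. Its values ran from 9.35 to 9.56 (median 9.48) in unstimulated WT cells and from 9.49 to 9.67 (median 9.56) at 0.5 h, and these ranges overlapped. At 1 h they ran from 9.64 to 9.85 (median 9.76), and at 2 h the 4 libraries read 10.08, 10.21, 10.39 and 9.96, both above every unstimulated library. The difference was 0.10 ± 0.059 (adjusted p = 0.282) after 0.5 h. It was 0.30 ± 0.059 (2.79e-05) after 1 h and 0.70 ± 0.066 (6.41e-14) after 2 h.

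The 2 MEK transcripts rose only at 2 h in this test, and by less. Map2k1, encoding MEK1, had means of 11.74 ± 0.09 (SD, n = 6) without LPS and 12.15 ± 0.06 (n = 4) at 2 h, without overlap, a difference of 0.41 ± 0.050 (SE; adjusted p = 1.78e-10) that was 0.02 after quantile normalization. Map2k2, encoding MEK2, had means of 11.01 ± 0.06 and 11.24 ± 0.06, a difference of 0.23 ± 0.046 (adjusted p = 1.4e-05) whose sign turned under quantile normalization (-0.06). That normalization put the median change of all tested genes at 2 h at -0.115, from -0.018 before, and relative to that median the 2 h differences were 0.14 for Map2k1 and 0.06 for Map2k2. Within WT replicates 7 to 9, with 1 library at 2 h, Map2k2 was not called. With the replicate number as a block, which pairs these WT cultures over time, Map2k1 also passed at 1 h (0.10, adjusted p = 0.0126).

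Further down the cascade only Rps6ka1 was called in the main test. Rps6ka1, encoding RSK1, was the 1 member called lower there after LPS, by 0.12 at 1 h (SE 0.034, adjusted p = 0.00217, but 0.0548 within WT replicates 7 to 9) and by 0.36 at 2 h (SE 0.038, adjusted p = 1.69e-12). Under quantile normalization, Rps6ka1 differed by -0.27 at 1 h and -0.62 at 2 h. Its unstimulated WT libraries ran from 11.24 to 11.33 and its 2 h libraries from 10.83 to 11.02, without overlap. Mapk3, encoding ERK1, differed by 0.11 at 2 h (95% confidence interval 0.00 to 0.21, adjusted p = 0.0596) and Rps6ka3, encoding RSK2, by 0.11 (-0.06 to 0.28, 0.241), and for both the 2 h ranges overlapped those without LPS. With the replicate block Rps6ka3 passed at 2 h (0.15, adjusted p = 0.0197), while under quantile normalization both were lower at 2 h (Mapk3 -0.30, Rps6ka3 -0.29), so no direction is given for them.

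**Figure D1:**
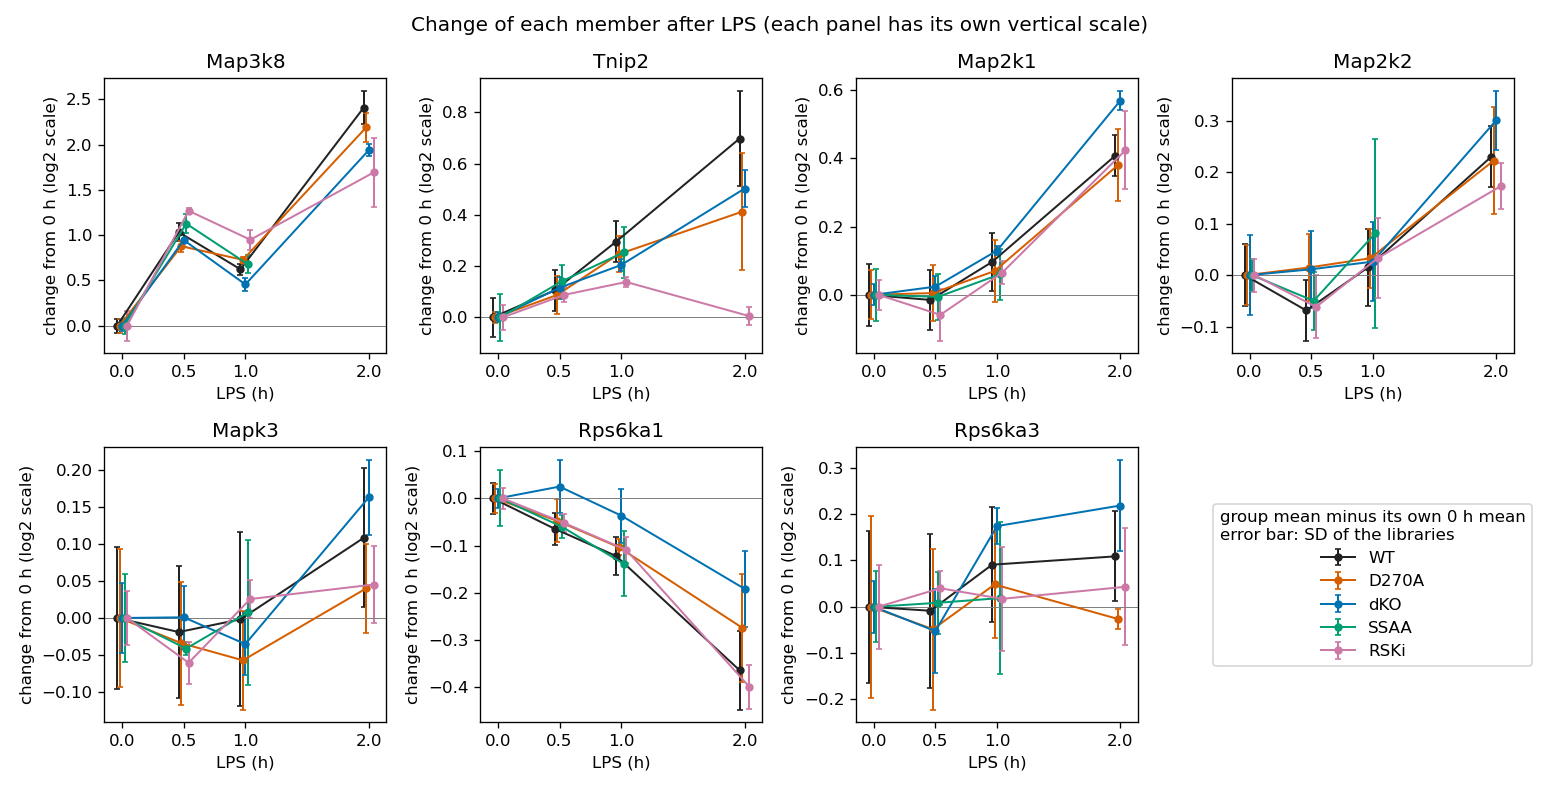
Change of each of the 7 transcripts after LPS, as the group mean minus that group's own mean without LPS (vertical axis, deposited log2 scale, each panel on its own scale) against hours of LPS, for WT, D270A, dKO, SSAA and RSKi BMDMs; error bars are the SD of the libraries. Map3k8 reached 2.41 in WT at 2 h, Tnip2 in RSKi was back at its starting level at 2 h, and Rps6ka1 fell in WT by 0.36. Under quantile normalization the WT change of Map2k1 at 2 h is 0.02 and that of Map2k2 is below 0.

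In cells with the kinase-inactive D270A allele 0 to 2 of these transcripts were called different from WT at each time. Without LPS 0 of the 7 members passed, when 1.44% of all genes did. After 0.5 h of LPS 1 passed (1.37%), after 1 h 0 (9.79%) and after 2 h 2 (27.7%). Without LPS, at 1 h and at 2 h the number called was thus near that of the genome. In the comparisons with 0 calls none had an unadjusted p below 0.05 either. The members that passed were Map3k8 at 0.5 and 2 h and Tnip2 at 2 h, all lower than in WT.

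In unstimulated Map3k8[D270A] cells the mutated gene's own transcript ran from 8.77 through 8.82 to 8.95, overlapping WT (difference -0.10, 95% confidence interval -0.20 to 0.01). At 0.5 h it ran from 9.64 through 9.71 to 9.81, wholly below WT, a difference of -0.25 ± 0.054 (SE; adjusted p = 0.00383). At 1 h it ran from 9.53 through 9.58 to 9.61, within WT (0.01, interval -0.10 to 0.12). At 2 h it read 11.16, 11.17, 11.21, 10.90, 10.87 and 10.89 in replicates 1 to 6, a difference of -0.31 ± 0.060 (adjusted p = 4.61e-05) with overlap only at WT replicate 7. Map3k8 was thus called lower than in WT at 0.5 and 2 h and not at 1 h.

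WT and D270A libraries fell into a first set (WT replicates 4 to 6, D270A replicates 1 to 3) and a second (WT replicates 7 to 9, D270A replicates 4 to 6) that differed in several members, a split the labels do not name. At 2 h the second set held 1 WT library, replicate 7, which the tests against it assume to vary like the other groups. Within the first set Map3k8 differed by -0.15 at 0.5 h (adjusted p = 0.22) and -0.24 at 2 h, and within the second by -0.35 (1.29e-05) at 0.5 h. Against WT replicate 7 alone, the D270A libraries of the second set differed by -0.25 at 2 h (0.0196). Tnip2 at 2 h read 10.16, 10.09 and 10.09 in D270A replicates 1 to 3 and 9.77, 9.68 and 9.67 in replicates 4 to 6, a pooled difference of -0.25 ± 0.066 (adjusted p = 0.00262). Within the first set this difference was -0.12 (0.12), and without WT replicate 6 the pooled call was lost. In the second set it was -0.26 (0.0149) against the single WT library. With the set as a term, a choice made after seeing the data, all 3 D270A calls held (Map3k8 -0.25 and -0.29, Tnip2 -0.23).

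**Figure D2:**
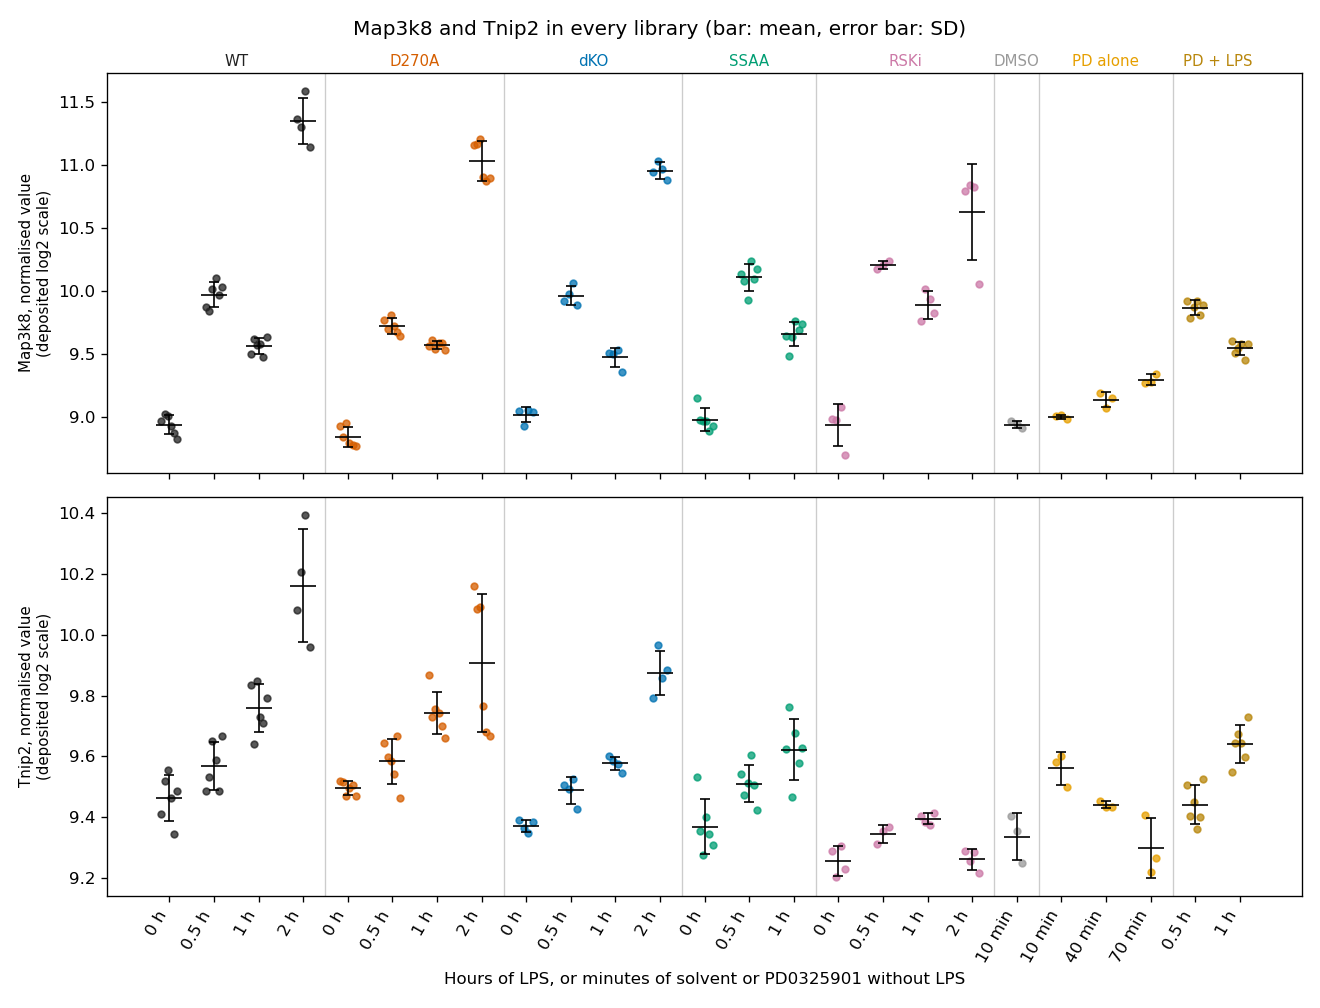
Map3k8 (upper panel) and Tnip2 (lower panel) in each library, as normalised values on the deposited log2 scale (vertical axis) by hours of LPS, or minutes of DMSO or PD without LPS, within each arm; points are libraries, the horizontal bar is the mean and the error bar the SD. Map3k8 in RSKi at 2 h has 1 library at 10.06 below 3 between 10.79 and 10.84, and Tnip2 in RSKi stays between 9.20 and 9.41 at all times.

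The largest single differences from WT among these comparisons were those of Tnip2 and Map3k8 after 2 h of LPS with RSKi47. Without LPS 3 of the 7 members passed (53% of all genes), and 4 did at each LPS time (48.2% of genes after 0.5 h, 52.8% after 1 h and 52.1% after 2 h), so the number of members called was near that of the genome at each time. The sizes differed: Tnip2 at 2 h differed by more than all but 2.49% of tested genes and Map3k8 by more than all but 4.54%.

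Tnip2 in RSKi cells stood at its unstimulated mean again after 2 h of LPS (9.26 at both times), with 9.39 at 1 h, and LPS within this arm was not tested on its own. The 4 unstimulated libraries read 9.29, 9.20, 9.31 and 9.23, the 3 at 0.5 h 9.31, 9.36 and 9.37, the 4 at 1 h 9.41, 9.39, 9.37 and 9.41, and the 4 at 2 h 9.29, 9.25, 9.29 and 9.22. All were below the WT libraries of the same time. The difference from WT was -0.21 ± 0.057 (SE; adjusted p = 0.00142) without LPS. With LPS it was -0.22 ± 0.062 (0.0019) after 0.5 h, -0.36 ± 0.057 (5.68e-08) after 1 h and -0.90 ± 0.062 (2.69e-23) after 2 h.

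Map3k8 moved both ways under RSKi47. Without LPS its libraries read 8.98, 8.98, 9.08 and 8.70, 1 above and 1 below the WT range and the rest within it (95% confidence interval of the difference -0.15 to 0.14). At 0.5 h they read 10.17, 10.21 and 10.24, all above WT, a difference of 0.23 ± 0.079 (adjusted p = 0.0102), and at 1 h 9.76, 10.02, 9.94 and 9.83, again all above WT, a difference of 0.32 ± 0.072 (8.7e-05). At 2 h they read 10.79, 10.84, 10.82 and 10.06, all below WT, a difference of -0.72 ± 0.079 (3.65e-13). Replicate 4 gave the low value at 2 h, and the 3 libraries of that number also held the most Col1a1 (4.85 to 9.03, against at most 4.69 in the other RSKi libraries). Without the libraries numbered 4 the 2 h difference was -0.53, still called, and the 0.5 h call was lost with WT replicates 7 to 9 alone as controls (0.17, adjusted p = 0.12) and with the replicate block (0.13, 0.165).

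Map2k1 and Map2k2 were lower than in WT at all 4 times under RSKi47, by -0.14 to -0.20 and -0.12 to -0.19. The Map2k2 difference was not called at any of these times against WT replicates 7 to 9 alone (at 2 h a single library, assumed to vary like the other groups). Its call was also lost in 5 of 10 fits that left out 1 culture at 0.5 h and in 6 of 10 at 1 h, with median centring at 0.5 h and with the other set of fitted libraries at 1 h. That of Map2k1 at 2 h was not called without RSKi replicate 4 (-0.08, adjusted p = 0.169), without WT replicate 7, after quantile normalization or with the other set of fitted libraries. Mapk3 passed at none of the 4 times, nor did Rps6ka1 and Rps6ka3, which encode kinases of the family that RSKi47 inhibits. Their differences ran from -0.08 to 0.01 for Mapk3 and from -0.15 to -0.03 for Rps6ka3 and reached at most 0.05 for Rps6ka1, and no 95% confidence interval went lower than -0.31.

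In dKO cells Map2k1 and Map2k2 were lower than in WT without LPS and up to 1 h, and Map2k2 also at 2 h, in libraries whose neutrophil markers were higher (S100a9 median 9.12 against 4.80). Without LPS 4 of the 7 members passed (51.8% of all genes). After 0.5 h 3 passed (44.4%), after 1 h 5 (53.4%) and after 2 h 3 (50.8%), all of them lower than in WT, so the number called was again near that of the genome. Genome-wide the calls were divided almost evenly, with 3228 higher and 2926 lower without LPS. Map2k2 was lower at every time, its libraries running from 10.56 to 10.75 without LPS against 10.89 to 11.07 in WT, and the ranges did not overlap at any of the 4 times. The difference was -0.35 ± 0.046 (SE; adjusted p = 1.43e-08) without LPS. With LPS it was -0.26 ± 0.046 (5.67e-06) after 0.5 h, -0.33 ± 0.046 (2.99e-08) after 1 h and -0.27 ± 0.050 (9.66e-06) after 2 h. Against WT replicate 7 alone, assumed to vary like the other groups, the 2 h call of Map2k2 was lost (-0.21, adjusted p = 0.0522). Map2k1 ran from 11.50 to 11.57 without LPS against 11.66 to 11.90 in WT, and differed by -0.20 (0.000732), -0.16 (0.00757) and -0.16 (0.00443) up to 1 h, but by -0.04 (interval -0.15 to 0.07) at 2 h. With WT replicates 4 to 6 alone as controls the Map2k1 call at 0.5 h was lost (-0.10, adjusted p = 0.0952).

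Of the upstream members in dKO cells, Map3k8 was called at 2 h only and Tnip2 at 1 and 2 h. Map3k8 read 10.95, 11.03, 10.96 and 10.88 there, all below the 4 WT libraries, a difference of -0.39 ± 0.066 (adjusted p = 1.93e-06), and at the 3 earlier times its differences lay between -0.09 and 0.08 and did not pass. Tnip2 read 9.79, 9.97, 9.86 and 9.88 at 2 h, where 1 library overlapped WT, a difference of -0.29 ± 0.072 (0.000833), and 9.60, 9.59, 9.58 and 9.55 at 1 h, all below WT (-0.18, 0.0176), a call lost without dKO replicate 4 and with WT replicates 7 to 9 alone as controls (adjusted p up to 0.0653). Against WT replicate 7 alone both 2 h calls were lost (-0.18 for Map3k8, adjusted p = 0.143, and -0.09 for Tnip2, adjusted p = 0.61), and against WT replicates 4 to 6 they were -0.46 and -0.35. Rps6ka1 differed by -0.18 (7.16e-05) without LPS, by -0.09 (0.0422) at 0.5 h, a call lost under median centring, with the replicate block, against either set of WT controls and in 7 of the 10 fits that left out 1 culture, and by -0.10 (0.0293) at 1 h, a call lost with the replicate number as a block (-0.04), without WT replicate 8, WT replicate 9 or dKO replicate 3, and with WT replicates 4 to 6 as controls (-0.06). Mapk3 was called without LPS (-0.13, 0.0334) and at 1 h (-0.16, 0.00731), neither of them called against WT replicates 7 to 9 alone and the first also lost when any of 6 of the 10 cultures was left out, and Rps6ka3 passed at no time.

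In SSAA cells, whose p105 lacks the serines that IKK phosphorylates, differences were small, in libraries with an S100a9 median of 5.89 against 4.80 in WT. Without LPS 1 of the 7 members passed (32% of all genes). After 0.5 h 0 passed (32.3%) and after 1 h 4 did (42.5%), and at 0.5 h 2 had an unadjusted p below 0.05. Map3k8 ran from 8.89 to 9.15 without LPS, from 9.93 to 10.23 at 0.5 h and from 9.49 to 9.76 at 1 h, without overlap between times, and its differences from WT were 0.04, 0.14 and 0.10, none of them called, with intervals that reached at most 0.26. The calls were Map2k1 without LPS (-0.10, 0.037) and at 1 h (-0.14, 0.00267), Tnip2 at 1 h (-0.14, 0.0238), Rps6ka3 at 1 h (-0.18, 0.0208) and Mapk3 at 1 h (0.10, 0.0386). In each of these the ranges overlapped WT, and 0 of the 5 were called when only the libraries of the groups compared were fitted. The Mapk3 difference turned to -0.0065 against WT replicates 4 to 6.

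With PD0325901 and LPS, 1 of 7 members passed against WT at 0.5 h (29.4% of all genes) and 0 at 1 h (35.7%). At each of these times 2 members had an unadjusted p below 0.05. Whether 7 genes with these counts differ from the genome's share was not tested. The call was Tnip2 at 0.5 h, running from 9.36 through 9.43 to 9.53 against 9.49 through 9.56 to 9.67 in WT, a difference of -0.13 ± 0.051 (SE; adjusted p = 0.0497) that was lost under 14 of 24 alternatives. Map3k8 differed by -0.11 (interval -0.23 to 0.02) at 0.5 h and -0.02 (-0.15 to 0.11) at 1 h. Without LPS, 10 min of PD against DMSO gave 0 called members and 0% of genes called, with 245 of 11971 genes and 1 member, Tnip2, at an unadjusted p below 0.05. Tnip2 read 9.58, 9.60 and 9.50 with PD and 9.40, 9.36 and 9.25 with DMSO, a difference of 0.22 (interval 0.08 to 0.37) without overlap.

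PD alone was followed for up to 70 min. Map3k8 read 8.96, 8.95 and 8.91 with DMSO, 9.01, 9.02 and 8.98 after 10 min of PD, 9.19, 9.07 and 9.15 after 40 min and 9.27, 9.28 and 9.34 after 70 min. No 2 of these 4 groups overlapped, and the order of the PD groups was that of their times, but there was no DMSO group at 40 or 70 min, so time in culture and the inhibitor cannot be told apart. The Tnip2 groups stood in the opposite order, at 9.50 to 9.60 after 10 min, 9.43 to 9.45 after 40 min and 9.22 to 9.41 after 70 min, also without overlap.

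Map3k8 was also higher with LPS in the presence of PD. Against PD alone for the matched time, 1 of 7 members passed at 0.5 h (14.9% of all genes) and 3 at 1 h (43.6%). Map3k8 ran from 9.78 to 9.92 at 0.5 h, 0.73 ± 0.079 (SE; adjusted p = 8.24e-13) above 40 min of PD, and from 9.45 to 9.60 at 1 h, 0.25 ± 0.079 (0.00671) above 70 min of PD. Against 10 min of PD, a control chosen after seeing the data, the 1 h difference of Map3k8 was 0.54. Tnip2 was 0.34 ± 0.062 higher at 1 h (1.93e-06), a difference of 0.08 (0.328) against 10 min of PD, and Rps6ka1 0.12 lower (difference -0.12, 0.00715). Leaving out PD replicate 1 ended the 1 h calls of Map3k8 (0.22, 0.0614) and Rps6ka1 (-0.07, 0.264).

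**Figure D3:**
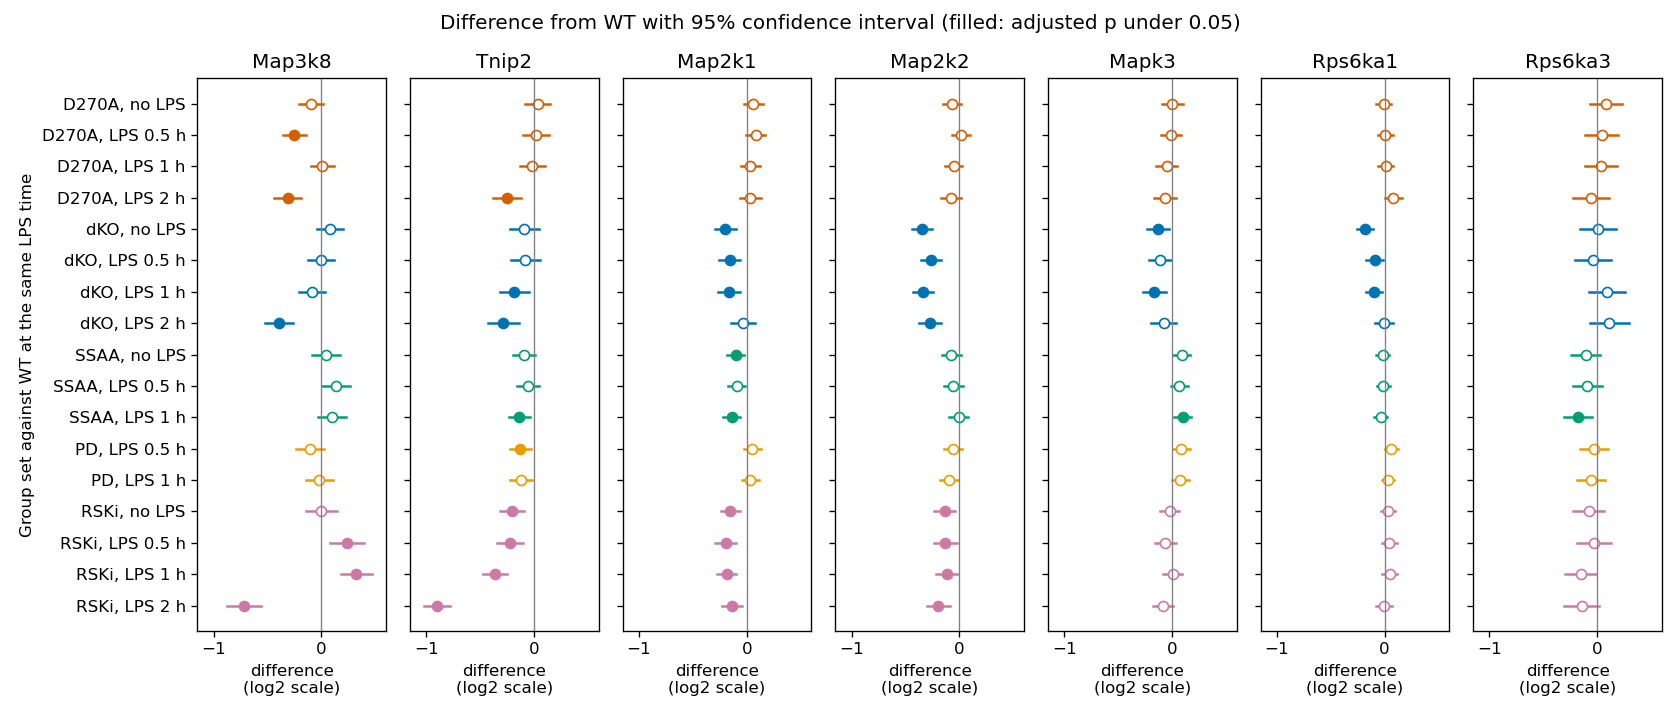
Difference from WT at the same LPS time for each of the 7 transcripts (horizontal axis, deposited log2 scale) in D270A, dKO, SSAA, PD and RSKi BMDMs (rows), as points with 95% confidence intervals; filled points have an adjusted p below 0.05. Tnip2 and Map3k8 at 2 h under RSKi47 lie farthest from 0 (-0.90 and -0.72), and Rps6ka3 has 1 filled point. Filled points near 0.10 in size, such as Mapk3 in SSAA at 1 h, changed sign or call with the choice of WT controls.

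Whether the LPS response itself differed from that of WT was tested as the difference between the 2 responses. At 1 h, 0 of 7 members passed for D270A (2.02% of all genes), 0 for dKO (1.35%) and 0 for SSAA (6.07%), and none of the 7 had an unadjusted p below 0.05 in any of these 3. At 1 h Map3k8 was the 1 member that passed for PD (3.58%) and for RSKi (5.54%). The response was 0.38 smaller under PD (difference -0.38, 95% confidence interval -0.58 to -0.17, adjusted p = 0.0152), with 70 min of PD as its baseline, and with 10 min of PD as baseline the difference was -0.08 (0.79). The call was also lost without PD replicate 2 or PD replicate 3. Under RSKi47 it was 0.33 larger (interval 0.12 to 0.53, 0.0371), a call that 8 of 19 alternatives did not make.

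At 2 h, 1 of 7 passed for D270A (15.5% of all genes), 2 for dKO (16.9%) and 2 for RSKi (21%). In D270A cells the rise of Tnip2 was smaller by 0.29 (difference -0.29, interval -0.46 to -0.11, adjusted p = 0.0195), -0.12 (0.314) within the first set of replicates, and that of Map3k8 differed by -0.22 (-0.38 to -0.06, 0.0573). The Tnip2 call was also lost without WT replicate 6 or without any of D270A replicates 4, 5 and 6. In dKO cells the rise of Map3k8 was smaller (-0.47, interval -0.65 to -0.29, 1e-04), a call made by all 19 alternatives that asked no fold, and the fall of Rps6ka1 was smaller (0.17, 0.06 to 0.29, 0.0262), a call that 5 of 19 did not make, median centring among them. Under RSKi47 the rise of Map3k8 was smaller by 0.72 (difference -0.72, interval -0.93 to -0.50, 8.66e-08) and that of Tnip2 by 0.69 (-0.69, -0.86 to -0.53, 1.62e-10), and both were called in all 19 alternatives that asked no fold. Without RSKi replicate 4 they were -0.60 and -0.69. The WT control sets were not among the alternatives run for these responses. For the plain 2 h difference of Map3k8 between dKO and WT, WT replicate 7 alone as control gave -0.18. Map2k1 and Map2k2, called lower without LPS in both of these arms, did not pass the test of the response at either time. The Map2k1 mean in dKO cells was nevertheless closer to WT at 2 h (12.11 against 12.15) than without LPS (11.54 against 11.74). For the dKO response at 2 h, 3 members had an unadjusted p below 0.05 in limma's test, and 2 were called.

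Mapk3 and Rps6ka3 separated the first and second sets of replicates. In unstimulated WT cells Mapk3 averaged 12.39 in replicates 4 to 6 and 12.21 in replicates 7 to 9, without overlap, and the second set was lower by 0.09 to 0.21 in each of the 8 WT and D270A groups (1 library at WT 2 h). Rps6ka3 averaged 12.09 and 12.33 in the same libraries, higher in the second set in 7 of these 8 groups, and at D270A 2 h its means were 12.27 and 12.26. Over the comparisons with WT or DMSO (18 in all), Mapk3 was called in 3 and Rps6ka3 in 1, with differences from -0.16 to 0.10 and from -0.18 to 0.11.

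**Figure D4:**
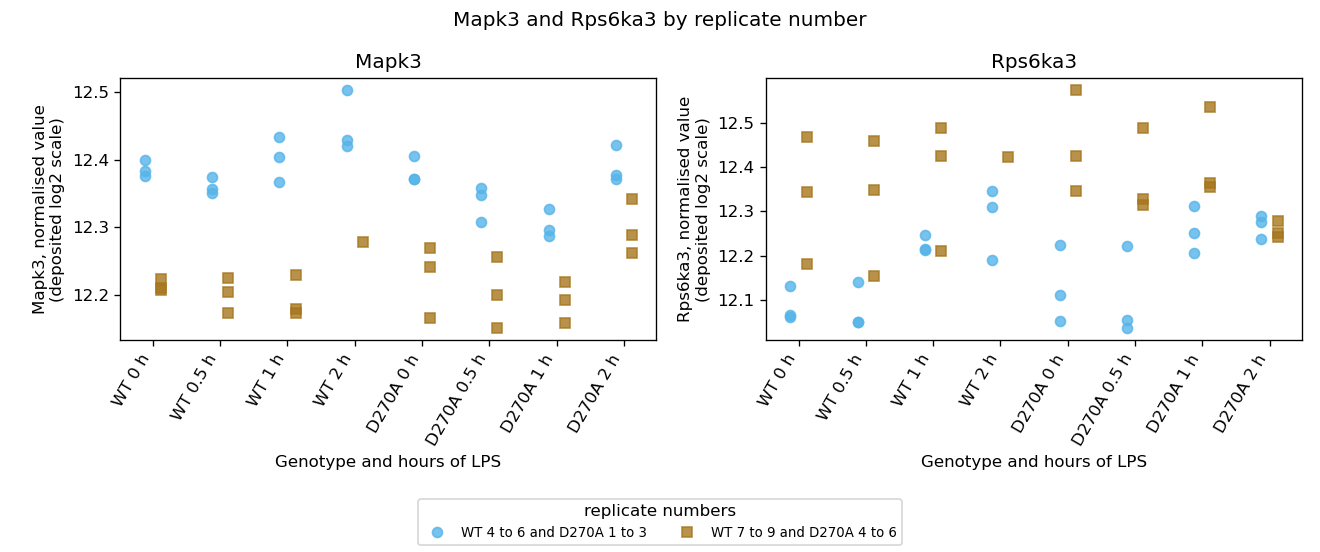
Mapk3 (left) and Rps6ka3 (right) in each WT and D270A library, as normalised values on the deposited log2 scale (vertical axis) by genotype and hours of LPS; circles are WT replicates 4 to 6 and D270A replicates 1 to 3, squares WT replicates 7 to 9 and D270A replicates 4 to 6. The squares lie below the circles for Mapk3 and mostly above them for Rps6ka3, by 12.21 against 12.39 and 12.33 against 12.09 on average in unstimulated WT cells.

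Over the means of the 25 groups the members ranged very differently. Map3k8 spanned 2.51, from 8.84 in unstimulated D270A to 11.35 in WT at 2 h, and Tnip2 0.90, while Map2k1 spanned 0.65, Map2k2 0.58, Rps6ka1 0.41, Rps6ka3 0.36 and Mapk3 0.27. With the groups in order of mean, 20 of 24 neighbouring pairs overlapped in their libraries for Map3k8, 23 of 24 for Tnip2 and all 24 for each of the other members. As a description over these 25 group means, which share WT controls, experiments and LPS times, Map3k8 followed Rps6ka1 inversely (Pearson r = -0.785) and Map2k1 followed Map2k2 (0.785). The genes whose group means ran closest to each member were Dcp1a (0.909) and Cep85l (0.904) for Map3k8, Sh3gl1 (0.919) and Tpm3 (0.901) for Tnip2, Tmem123 (0.977) and Psmd6 (0.954) for Map2k1, and Fam104a (0.977) and Ccdc124 (0.972) for Map2k2. For the downstream kinases they were Tbcb (0.94) and Acaa1a (0.91) for Mapk3, Tifab (0.979) and Nfam1 (0.966) for Rps6ka1, and Specc1 (0.916) and Tal2 (0.898) for Rps6ka3.

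A list of 46 other genes of the TPL-2 and MAP kinase cascades, of which 44 were tested, gives the setting. After 2 h of LPS in WT cells 27 rose and 10 fell (84.1% of the 44 called, against 71.5% of all genes), with a median of 0.35 against -0.02 over all genes, and all 9 tested genes of the TPL-2 complex and IKK group passed (7 higher, 2 lower). The largest were Tnip3 (2.80, adjusted p = 1.85e-27) and Tnip1 (2.56, 5.3e-33), which encode the relatives ABIN-3 and ABIN-1 of the Tnip2 product, and Nfkb1 (2.18, 2.42e-34), which encodes p105. In D270A cells 0 of the 44 passed without LPS (1 at an unadjusted p below 0.05) and 0 at 0.5 h (3), 8 passed at 1 h (18.2%, against 9.79% of all genes) and 24 at 2 h (7 higher, 17 lower; 54.5% against 27.7%). Under RSKi47 at 2 h 31 passed (11 higher, 20 lower; 70.5% against 52.1% of all genes), with Tnip3 (-1.40, 1.71e-18) and Mapk11 (-1.13, 4.37e-18), which encodes p38β, differing most, and the Tnip3 response differed from that of WT by -1.20 (2.75e-09). With 1 h of LPS under PD 21 of the 44 rose and 7 fell (63.6% called, against 43.6% of all genes), led by Tnip3 (2.21, 3.29e-32), Tnip1 (1.30, 5.69e-29) and Mapkapk2 (1.14, 1.32e-31), which encodes the kinase MK2. Elsewhere the share called was nearer to that of all genes or below it. Under RSKi47 without LPS it was 45.5% against 53%. With PD and LPS it was 25% against 29.4% at 0.5 h and 31.8% against 35.7% at 1 h. For SSAA it was 31.8%, 25% and 45.5% against 32%, 32.3% and 42.5% at 0, 0.5 and 1 h. For dKO it was 52.3%, 43.2%, 61.4% and 56.8% against 51.8%, 44.4%, 53.4% and 50.8% at 0, 0.5, 1 and 2 h.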

How the data were processed

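RNA from each culture was sequenced as single-end TruSeq libraries. Per the submitters' processing notes, reads were aligned to mm10 with STAR 2.5.1b, counted per gene with RSEM 1.2.29 and normalized with DESeq2 1.10.1. The deposited table holds normalized log2 values per gene and library, with no counts and no named transformation. Depth is therefore unknown, differences may be smaller than log2 fold changes of counts, most of all for low genes, and levels are not comparable between genes.

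Limma 3.58.1 in R 4.3.3 was fitted to the group means of 119 libraries (SSAA, PD, RSKi) or of the 62 WT, D270A and dKO libraries, and p-values were Benjamini-Hochberg adjusted over all genes tested (a linear value of at least 10 in at least 4 libraries of the 62, or 3 of the 119), which left 11884 and 11971 of 18098 genes. An adjusted p below 0.05 was called. 1 value above 25 was treated as missing. All 119 columns were matched to samples by title. The scripts were tested on simulated data for D270A against WT at 1 h. There 60% of changes of 0.25 and 92% of changes of 0.5 were called in the right direction. A difference of 0.25 or less can therefore go uncalled. Replicates are separate libraries, which the labels do not tie to animals. Each library was treated as independent, so p-values measure the spread of libraries within groups, pooled over the groups of a fit. They do not measure the spread between animals or between experiments. With PD and LPS, replicates 3 and 6 (0.5 h) and 2 and 5 (1 h) lay closest together, so numbers 3 apart may be repeats of 1 culture. They were also averaged in the comparison with WT. They were not averaged for LPS under PD or for the response under PD, which count them as separate libraries.

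Members, gene lists and rules were chosen with earlier results of these data known. Named were all 7 members, up to 3 other cascade genes per family of comparisons called with a difference of at least 1, the 2 genes closest to each member in the group means, and Elk1 and Elk4. WT replicate numbers paired the WT times (correlations of same-numbered libraries' deviations 0.16 to 0.79), but not WT with other arms (-0.45 to 0.18). Alternatives covered filters, variance trend, scaling, pseudocount, libraries fitted, replicate block, culture as a random effect, WT control sets and leaving out each culture. Figures were drawn with matplotlib.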

Additional observations from a re-analysis of the deposited data

Results flagged for a closer look

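Within groups of 4 to 6 libraries, 9 of 140 sets of values of 1 member in 1 group had a library set apart from the rest by more than Dixon's 95% critical value, where chance gives about 1 in 20. For Map3k8 these were dKO replicate 2 without LPS (8.93), dKO replicate 4 at 1 h (9.36), RSKi replicate 4 at 2 h (10.06) and SSAA replicate 1 without LPS (9.15). For the MEK transcripts they were Map2k1 in SSAA replicate 3 at 1 h (11.55) and Map2k2 in RSKi replicate 4 without LPS (10.92). Mapk3 was set apart in dKO replicate 3 without LPS (12.24), Rps6ka1 in RSKi replicate 3 at 2 h (10.85) and Rps6ka3 in RSKi replicate 4 at 1 h (11.98). RSKi replicate 4 held 3 of the 9.

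The LPS response differed from that of WT, by limma's test of the difference itself, for 3 of the 7 members in at least 1 of 8 comparisons. Over all genes these comparisons called 1.35% to 21%, and at 2 h the members called were 1 of 7 for D270A (15.5% of all genes), 2 for dKO (16.9%) and 2 for RSKi47 (21%). For Map3k8 the difference in response was -0.47 in dKO cells at 2 h, -0.38 under PD at 1 h, 0.33 under RSKi47 at 1 h and -0.72 under RSKi47 at 2 h. For Tnip2 it was -0.29 in D270A cells and -0.69 under RSKi47, both at 2 h. For Rps6ka1 it was 0.17 in dKO cells at 2 h. The PD value had 70 min of PD as its baseline, and with 10 min of PD it was -0.08 (limma's adjusted p = 0.79). The RSKi47 call at 1 h was lost in 8 of 19 alternatives. Direct contrasts between these arms were not tested.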

How the results depend on the processing

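The values are normalized and on an unnamed log2 scale, so depth and counting error are unknown, and 14 of 91 member differences lost their call with WT replicates 7 to 9 as the controls, which leave 1 WT library at 2 h, assumed there to vary like the other groups. Of the 217 member differences, 203 to 217 kept direction and call under other filters, the variance trend, another set of fitted libraries, median centring, quantile normalization, 16 added on the linear scale or culture as a random effect, and sign changes other than those given here were between uncalled values. The cause of each change below was not tested.

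Asking for a 2-fold difference as well left 2 of 9 member calls for LPS in WT (Map3k8 at 0.5 and 2 h) and 0 for D270A (from 3), dKO (15), SSAA (5), PD with LPS (1), LPS under PD (4), RSKi (15) and the difference in response (7). Calls for dKO were 8 with WT replicates 7 to 9 as controls. Those for SSAA were 3 with WT replicates 4 to 6, 9 with WT replicates 7 to 9 and 0 with only the compared groups fitted. The 1 call for PD with LPS became 0 without the filter, under median centring, with culture as a random effect or with PD replicates averaged in pairs, 2 with WT replicates 7 to 9 as controls and 2 with only the compared groups fitted. The D270A call in the response was 0 within the first set of replicates, and the PD call 0 with 10 min of PD as control, both chosen after seeing the data. Under quantile normalization Map2k2 was -0.13 at 1 h and -0.058 at 2 h of LPS in WT, Mapk3 -0.30 and Rps6ka3 -0.29 at 2 h. Mapk3 in SSAA at 1 h was -0.0065 with WT replicates 4 to 6.

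The replicate block left 170 of the 217 differences with the same direction and call, and asking for 2-fold left 160. Within WT, where numbers pair the times, it gave 11 calls for LPS in place of 9. Elsewhere samples shared only a number, and it gave 16 calls for D270A (from 3) and 8 for PD with LPS (from 1), and put Mapk3 at -0.13 in unstimulated D270A, -0.10 in RSKi at 1 h and -0.0072 in SSAA at 1 h. Over all genes it raised D270A calls from 171 to 3945 without LPS, 163 to 3426 at 0.5 h, 1163 to 4565 at 1 h and 3292 to 5099 at 2 h.

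Leaving out each culture in turn gave 2 to 4 calls for D270A, 12 to 15 for dKO, 9 to 10 for LPS in WT, 2 to 4 for LPS under PD (2 without PD replicate 1), 0 to 0 for PD against DMSO, 0 to 3 for PD with LPS (0 without PD replicates 2, 3, 4 or 5 or WT replicate 9, 3 without WT replicate 8), 13 to 15 for RSKi and 2 to 7 for SSAA (2 without SSAA replicate 2, WT replicate 7 or WT replicate 9). For the difference in response it gave 4 to 8 in all (4 without WT replicate 6), 0 to 2 for D270A (0 without D270A replicates 4, 5 or 6), 1 to 2 for dKO, 0 to 1 for PD (0 without PD replicates 2 or 3), 2 to 3 for RSKi and 0 to 0 for SSAA.

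Over all genes, counts of calls also moved by over 1.5 times from 6240 to 4153 for RSKi and from 6041 to 3193 for dKO at 2 h against that 1 WT library, from 1382 to 782 for LPS at 0.5 h in WT in the first set of replicates, and from 5083 to 2704 for SSAA at 1 h with only the compared groups fitted. Culture as a random effect raised LPS at 0.5 h in WT to 2471.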
